A study of Mus musculus with 6 samples.

Results

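The enzymes that remove superoxide and peroxides were examined in mouse liver: Sod1, Sod2, Cat, Gpx1, Gpx4, Prdx3, Prdx5, Prdx6, Txn1 and Txn2. They were chosen by name, and all 10 were found by gene symbol among the 20673 genes of the deposited tables. RNA-seq libraries were made from whole liver of C57BL/6J mice kept on a regular diet (RD, a standard chow, labelled as no treatment, n = 3) or given a high-cholesterol diet for 3 days (HCD, n = 3). The HCD contained cocoa butter, cholesterol and sodium cholate and more fat than the RD. The groups thus differed in amount and source of fat, cholesterol and bile salt together, and these cannot be told apart. Food intake, by the paper's account, was modestly lower with HCD. All mice were of the same inbred strain without a transgene, each library came from 1 liver, and the labels give neither age nor sex. The comparison asks how a short cholesterol-rich diet, studied by its authors for its effect on sepsis, changes liver RNA before any infection. Libraries held 13771630 to 23129576 counts with RD and 13935491 to 18545549 counts with HCD. Fewer cells of a type and less RNA per cell cannot be told apart in such bulk samples.

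Superoxide leaks from the respiratory chain and is formed by several oxidases. Superoxide dismutases turn it into hydrogen peroxide, which catalase splits in peroxisomes and which glutathione peroxidases and peroxiredoxins reduce elsewhere, the former with glutathione and most of the latter with thioredoxin. The liver is rich in these enzymes because its peroxisomes and its cytochromes produce much peroxide, and each compartment carries its own set. Sod1, Gpx1, Gpx4, Prdx6 and Txn1 were grouped as cytosolic by the main location of their products, Sod2, Prdx3 and Txn2 as mitochondrial and Cat as peroxisomal, and Prdx5, whose product is found in several compartments, stood alone. Gpx1 and Gpx4 also have mitochondrial pools, so the grouping is by main site only.

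Sequence upstream of the annotated gene start is shown for Gpx1, the enzyme with the largest difference between the diets, for Cat, the only peroxisomal one, and for Sod1, the only one of the 9 enzymes searched whose promoter held an antioxidant response element core. The sequences are from RefSeq, build GRCm38.p6, and run 5′ to 3′ on the strand of the gene. Capitals mark matches, on either strand, to the GC box (GGGCGG), the CCAAT box (CCAAT) and the antioxidant response element core (TGACNNNGC). Gpx1 is shown at chr9:108338830-108338902 (plus strand), Cat at chr2:103485161-103485403 (minus strand) and Sod1 at chr16:90220512-90220753 (plus strand). The stretches end at the GENCODE gene start, which lies 7 bases before the RefSeq start for Cat, 8 bases before it for Sod1 and 177 bases before it for Gpx1, so the Gpx1 stretch is not the bases next to its RefSeq start.
Gpx1: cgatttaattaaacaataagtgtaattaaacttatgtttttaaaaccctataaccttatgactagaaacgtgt
Cat: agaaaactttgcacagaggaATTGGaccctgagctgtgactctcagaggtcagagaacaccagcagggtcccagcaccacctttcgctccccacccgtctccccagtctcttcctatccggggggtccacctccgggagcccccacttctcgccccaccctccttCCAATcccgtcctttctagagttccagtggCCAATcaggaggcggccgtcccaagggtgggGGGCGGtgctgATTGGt
Sod1: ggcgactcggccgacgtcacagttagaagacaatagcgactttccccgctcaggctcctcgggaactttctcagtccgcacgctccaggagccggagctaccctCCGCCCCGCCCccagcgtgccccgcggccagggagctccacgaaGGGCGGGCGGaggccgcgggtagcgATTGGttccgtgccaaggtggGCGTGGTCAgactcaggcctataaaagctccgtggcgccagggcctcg
RefSeq promoter windows, from 250 bases before to 50 bases after a start, were matched for 9 of the 10 enzymes (all but Prdx6), as 12 windows of which Gpx4 had 4. The antioxidant response element core was in 1 of the 12, that of Sod1, and in 12.4% of all 32851 windows. A GC box was in 11 of the 12 windows, against 35.7% of all windows, and overlapping GC boxes in the Sod1 promoter appear as longer runs of capitals. A CCAAT box was in 7 of the 12 windows (of Cat, Gpx4, Txn2, Sod1 and Sod2), against 37.4% of all windows. The sterol regulatory element (TCACNCCAC) was in 0 of the 12 and in 1.2% of all windows. The printed Gpx1 stretch held none of these letters, and its GC box lay downstream of it. These are letter matches only, and binding was not measured.

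Gpx1, the main cytosolic glutathione peroxidase and a selenoprotein, was upregulated with HCD, and no other enzyme passed the threshold. Levels are given as CPM, the read count of a gene relative to the TMM-scaled size of its library. Gpx1 (ENSMUSG00000063856, chr9:108338903-108340343 in GRCm38) stood at 1592, 1471 and 1405 CPM in RD replicates 1 to 3 and at 2542, 3905 and 3166 CPM in HCD replicates 1 to 3. Every HCD liver was above every RD liver, and the HCD livers were also the more spread out. The means were 1489.5 ± 95.1 CPM (SD, n = 3) with RD and 3204 ± 683 CPM (SD, n = 3) with HCD. The log2 fold change was 1.11 ± 0.20 (SE), a 2.15-fold difference, with an edgeR quasi-likelihood adjusted p of 0.0293 (Benjamini-Hochberg over 13105 genes). In that test 3.27% of all genes were called, 1.95% higher and 1.32% lower with HCD, and 1 of the 10 enzymes was called higher and 0 lower. On library sizes alone, 49.5% of the called genes were higher against 59.6% with TMM scaling. Before adjustment, 4 of the 10 enzymes had an edgeR p of 0.05 or less, all higher with HCD, against 20.9% of all genes (11.1% higher and 9.81% lower). DESeq2 also called 1 of the 10, Gpx1, where it called 6.97% of all genes (3.88% higher).

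**Figure D1:**
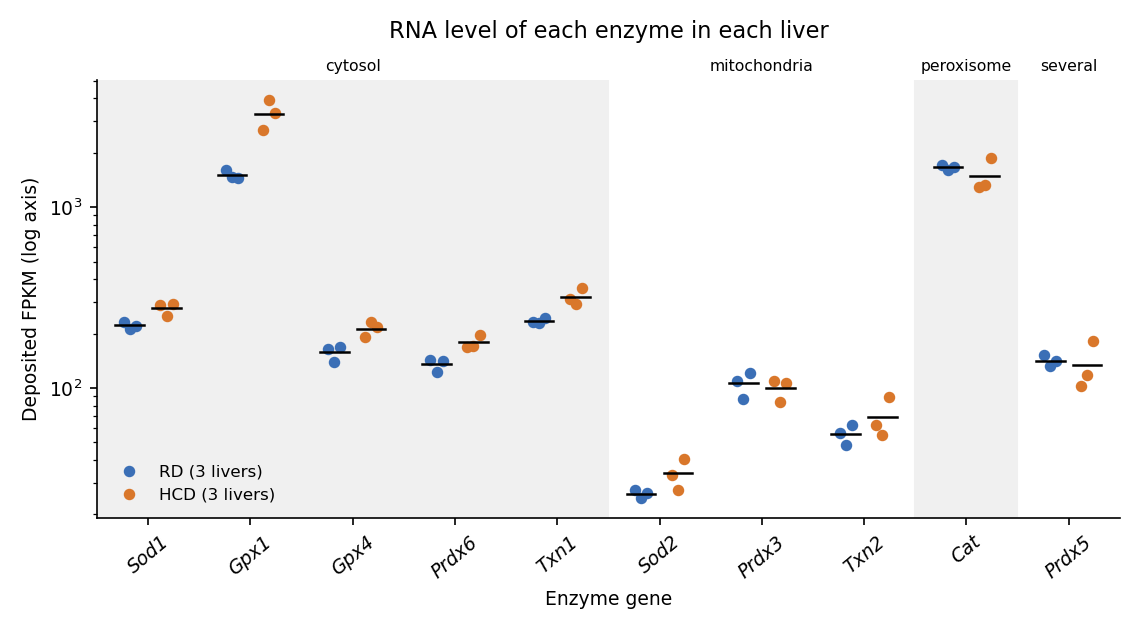
Deposited FPKM (log axis) of each of the 10 enzymes in each of the 6 livers, grouped by compartment, with RD in blue and HCD in orange and black bars at the means. Gpx1 is the only enzyme whose HCD livers sit far above its RD livers (2660 to 3920.1 against 1457 to 1607 FPKM), while Cat, Prdx3, Prdx5 and Txn2 overlap between the diets.

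The size of the Gpx1 difference varied little between analyses but its call did not hold in all of them. With any 1 liver left out, the log2 fold change was 0.94 to 1.25. The edgeR adjusted p became 0.124, 0.133 and 0.0846 without RD replicate 1, 2 and 3 and 0.0744 without HCD replicate 3, all above the threshold of 0.05. It was 0.0527 after removal of a trend of fold change with gene length, and limma on log2(FPKM + 1) gave 0.0576. Over all alternatives the adjusted p ranged from 2.3e-07, with DESeq2, to 0.133. Without RD replicate 1, 39 genes of the whole table were called against 428 with all livers.

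**Figure D2:**
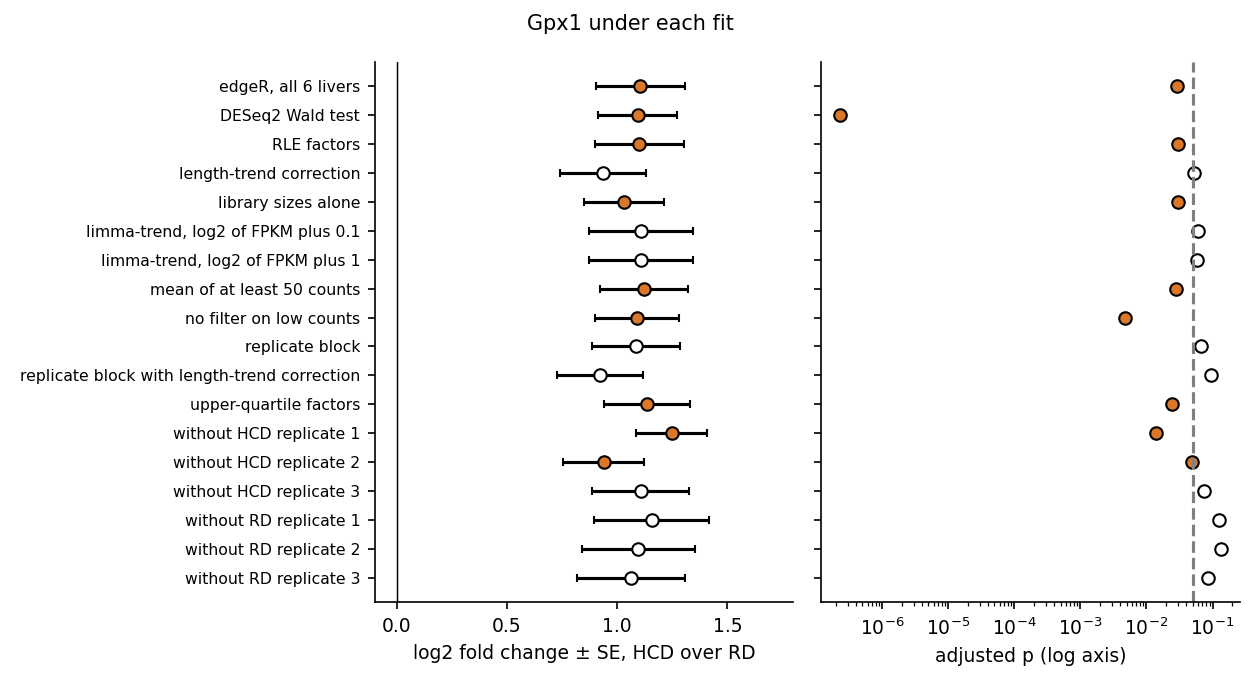
Log2 fold change of Gpx1 with its standard error (left) and adjusted p on a log axis (right) under each fit, filled where the adjusted p is under 0.05 (dashed line). The log2 fold change stays between 0.92 and 1.25, whereas the adjusted p lies on both sides of the line.

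The other glutathione and peroxide enzymes of the cytosol had higher values with HCD but missed the threshold. Gpx4, which reduces lipid hydroperoxides within membranes (ENSMUSG00000075706, chr10:80047166-80056439), was at 195, 167 and 195 CPM with RD and at 218, 275 and 250.4 CPM with HCD. The diets did not overlap, and the closest livers were RD replicates 1 and 3 and HCD replicate 1. The log2 fold change was 0.42 ± 0.15 (SE) with an edgeR adjusted p of 0.161. Prdx6, a peroxiredoxin that works with glutathione and also acts on phospholipids (ENSMUSG00000026701, chr1:161240112-161251219), was at 475, 413 and 453 CPM with RD and at 539.7, 564 and 633 CPM with HCD. Its HCD livers were again all above its RD livers, by a log2 fold change of 0.37 ± 0.15 (SE, edgeR adjusted p = 0.194).

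Reads of Gpx4 may be divided with a copy of the gene. Gpx4-ps2, a transcribed pseudogene also on chromosome 10, matches Gpx4 at 99.7% of 762 aligned bases and held 20.5% as many counts as Gpx4. Its own values were 28.2, 24.1 and 35.4 CPM with RD and 55.1, 65.3 and 64.8 CPM with HCD. That is a log2 fold change of 1.08 ± 0.17 (SE, edgeR adjusted p = 0.0203), against 0.42 for Gpx4 itself. The pseudogene was not called without RD replicate 1 (edgeR adjusted p = 0.106), RD replicate 2 (0.0875) or HCD replicate 3 (0.0677). With the counts of both summed, an alternative chosen after seeing the data, the log2 fold change of Gpx4 was 0.53 with an edgeR adjusted p of 0.0995. The Gpx4 value is therefore uncertain by the reads that could belong to either.

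The dismutases, which make the peroxide the other enzymes remove, had positive log2 fold changes that missed the threshold. Sod1, the copper and zinc enzyme of the cytosol (ENSMUSG00000022982, chr16:90220754-90226329), was at 636, 584 and 589 CPM with RD and at 762, 686 and 770.5 CPM with HCD. All HCD livers were above all RD livers, with a log2 fold change of 0.29 ± 0.14 (SE) and an edgeR adjusted p of 0.284. Sod2, the manganese enzyme of the mitochondrial matrix (ENSMUSG00000006818, chr17:13006846-13040063), was at 188, 172 and 176 CPM with RD and at 219, 189 and 272 CPM with HCD. HCD replicate 2 was within 2 CPM of RD replicate 1, and HCD replicate 3 was far above both. The log2 fold change of Sod2 was 0.34 ± 0.16 (SE, edgeR adjusted p = 0.270), and 0.19 without HCD replicate 3 (edgeR adjusted p = 0.517). A processed pseudogene, Gm8566, matches Sod1 at 97.8% of 465 bases and held 1.59% as many counts. Sod2 matches the coding gene Rps6ka2 at 98.3% of 3110 bases, and that gene held 0.705% as many counts as Sod2. Sod2 also shares 98.5% of 3108 bases with a long noncoding RNA gene on chromosome 17. For that gene no value was used here, so the Sod2 counts are uncertain too.

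Of the thioredoxins, which donate electrons to peroxiredoxins, the cytosolic form was apart between the diets and the mitochondrial form overlapped, and neither passed the threshold. Txn1 (ENSMUSG00000028367, chr4:57943373-57956411) was at 168, 167 and 172 CPM with RD and at 216, 212 and 249 CPM with HCD. The RD livers were nearly equal and every HCD liver lay above them. Its log2 fold change was 0.42 ± 0.13 (SE), the second smallest p of the enzymes, with an edgeR adjusted p of 0.126. With the trend of fold change with gene length removed, it was 0.21 (edgeR adjusted p = 0.458). Txn2 (ENSMUSG00000005354, chr15:77915047-77929006) was at 164, 142 and 175 CPM with RD and at 174, 159.9 and 250.5 CPM with HCD. Only HCD replicate 3 lay above the RD livers, and the log2 fold change was 0.28 ± 0.19 (SE, edgeR adjusted p = 0.441). Without that liver it was 0.053 (edgeR adjusted p = 0.875).

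The remaining mitochondrial, peroxisomal and multi-compartment enzymes had log2 fold changes slightly below 0 and overlapped between the diets. Cat, which splits hydrogen peroxide in peroxisomes (ENSMUSG00000027187, chr2:103453849-103485160), was at 3079, 2929 and 2916 CPM with RD and at 2233, 2395 and 3258 CPM with HCD. In TMM-scaled CPM, HCD replicates 1 and 2 were below all RD livers while HCD replicate 3 was above them. HCD replicate 3 had the lowest TMM factor, 0.886. Relative to plain library size its Cat value was also below all RD livers, so this overlap depends on the scaling. The log2 fold change was -0.18 ± 0.19 (SE, edgeR adjusted p = 0.642), and it ranged from -0.37 to -0.07 as each liver was left out. On library sizes alone it was -0.26 (edgeR adjusted p = 0.394). Prdx3, the peroxiredoxin of the mitochondrial matrix (ENSMUSG00000024997, chr19:60864051-60874556), was at 112, 89.5 and 119.9 CPM with RD and at 107, 86.0 and 105 CPM with HCD. These ranges almost coincide, with a log2 fold change of -0.11 ± 0.16 (SE, edgeR adjusted p = 0.727). It ranged from -0.22 to -0.019 as each liver was left out and was -0.26 with the length trend removed (edgeR adjusted p = 0.420). Prdx5 (ENSMUSG00000024953, chr19:6906697-6910106) was at 223, 199 and 201 CPM with RD and at 146, 175 and 259 CPM with HCD. As for Cat in TMM-scaled CPM, HCD replicates 1 and 2 were below and HCD replicate 3 above the RD livers. Relative to plain library size, HCD replicate 3 was within the RD range. The log2 fold change of Prdx5 was -0.10 ± 0.21 (SE, edgeR adjusted p = 0.817). Without HCD replicate 1 the sign turned, to 0.063 (edgeR adjusted p = 0.883). Prdx5 overlaps Trmt112 on the opposite strand by 409 bases, and Sod1 overlaps Scaf4 by 650 bases. Without a stated strand setting, reads there cannot be told apart, and Trmt112 held 260 to 660 counts.

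**Figure D3:**
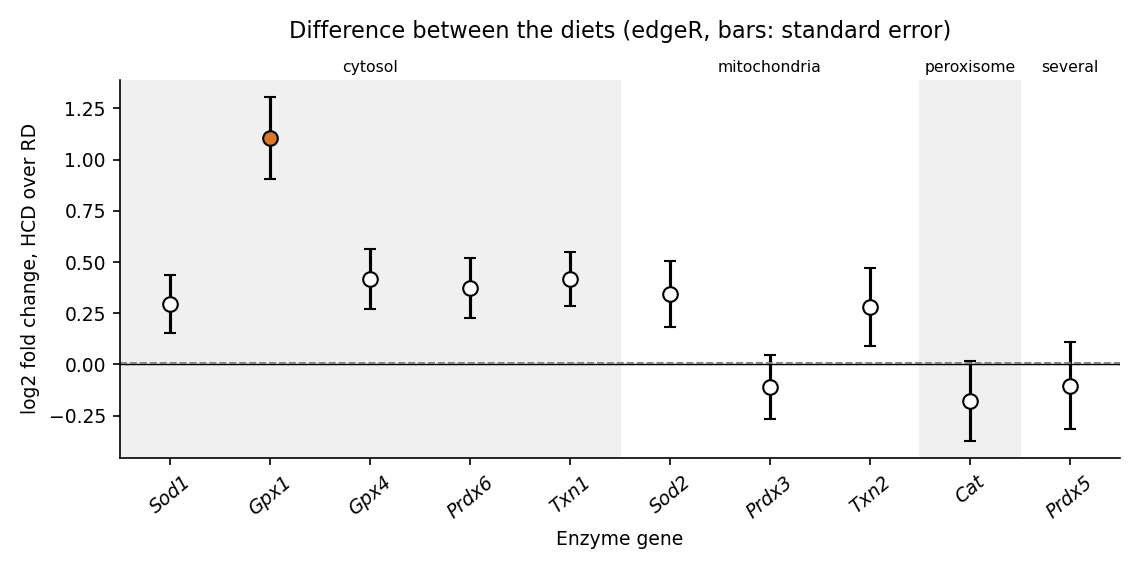
Log2 fold change of each enzyme, HCD over RD, with its standard error from edgeR, grouped by compartment and filled where the adjusted p is under 0.05. All 5 cytosolic enzymes lie above 0 and Gpx1 alone is filled, while Cat, Prdx3 and Prdx5 lie slightly below 0, and the dashed line marks the median of all genes tested (0.0074).

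By compartment, the cytosolic enzymes had log2 fold changes of one sign and the others were mixed. All 5 had every HCD liver above every RD liver, which 14.0% of all genes tested showed (13.7% the reverse, 27.6% either), and their median log2 fold change was 0.42 against 0.0074 for all genes. The 4 enzymes with an edgeR p of 0.05 or less before adjustment were all cytosolic. Of the 3 mitochondrial enzymes, 1 (Sod2) had every HCD liver above every RD liver, and the median log2 fold change was 0.28, which is that of Txn2. Without HCD replicate 3 the mitochondrial median was 0.053 and the cytosolic median 0.33, without HCD replicate 2 they were 0.40 and 0.39, and with the length trend removed both were 0.32, so the order of the compartments was not stable. The peroxisomal Cat and the multi-compartment Prdx5 overlapped between the diets in TMM-scaled CPM. Relative to plain library size, the Sod2 ranges overlapped and every Cat value with HCD was below every RD value. Over the 10 enzymes the median log2 fold change was 0.32, with 7 above 0 and 3 below, where 50.7% of all genes were above 0. In TMM-scaled CPM, HCD replicate 3 held the highest value of the 6 livers in Sod1, Sod2, Prdx6, Txn1, Txn2, Cat and Prdx5, but not in Gpx1, Gpx4 or Prdx3. Relative to plain library size it held the highest value only in Sod2 and Txn2, so this tally depends on the scaling.

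Ratios of enzymes within a liver need no scaling between livers. Each compares the RNA of 1 gene with that of 1 other gene and not whole compartments. The difference between the diets was tested for 4 pairs by an exact two-sided permutation test over livers, which cannot go below p = 0.10 with 3 livers against 3. The Cat to Gpx1 pair sets a peroxisomal against a cytosolic enzyme, and it largely repeats the Gpx1 difference given above rather than adding a separate result. Its FPKM ratios were 1.07, 1.10 and 1.14 with RD and 0.484, 0.338 and 0.567 with HCD. Every HCD ratio was below every RD ratio, and the log2 ratio was lower with HCD by a difference of -1.28 (from 0.14 ± 0.05 to -1.14 ± 0.38, SD, n = 3, exact permutation p = 0.10, 0.20 adjusted over the 4 pairs). Prdx6 to Prdx3, cytosolic to mitochondrial peroxiredoxin, stood at 1.31, 1.42 and 1.16 with RD and at 1.56, 2.02 and 1.86 with HCD. These did not overlap either, with a log2 difference of 0.48 (exact permutation p = 0.10, adjusted 0.20). For Txn1 to Txn2 the log2 difference was 0.16 and the livers overlapped (exact permutation p = 0.30, adjusted 0.40), and it was 0.070 without HCD replicate 2 and 0.28 without HCD replicate 3. The Sod1 to Sod2 ratio was 8.54, 8.54 and 8.44 with RD and 8.77, 9.13 and 7.14 with HCD, so that the RD livers were almost identical and the HCD livers fell on both sides of them. Its log2 difference was -0.035 (exact permutation p = 1), and it turned to 0.073 without HCD replicate 3. Neither pair of isoforms that differ in compartment, Sod1 and Sod2 or Txn1 and Txn2, thus showed a difference beyond the spread of the livers.

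**Figure D4:**
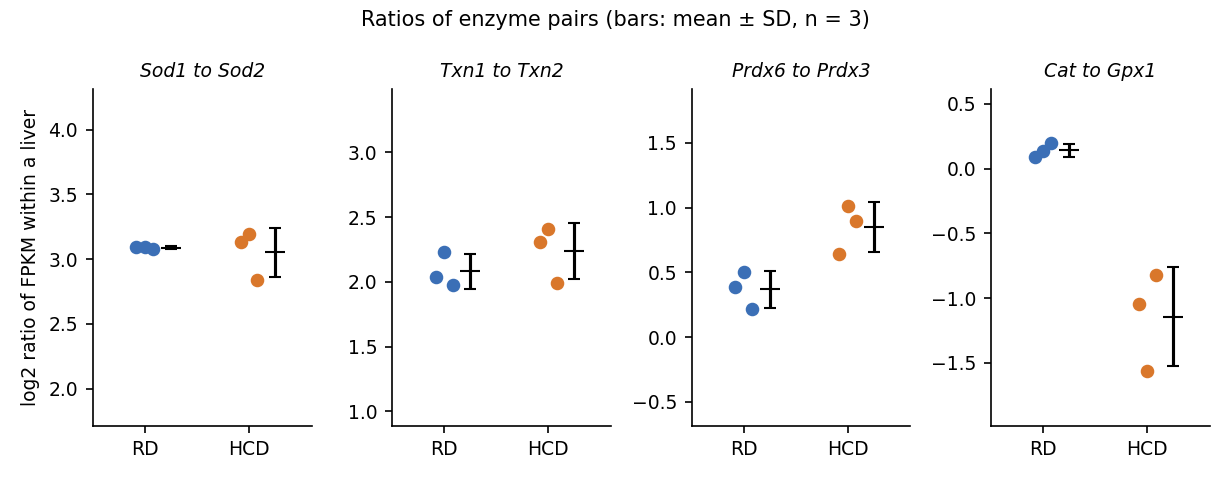
Log2 ratio of the FPKM of 2 enzymes within each liver, for 4 pairs and both diets, with the mean and SD of 3 livers beside the points and axes of equal span. The diets are apart for Cat to Gpx1 (0.14 against -1.14) and for Prdx6 to Prdx3 (0.37 against 0.85), and overlap for Sod1 to Sod2 and Txn1 to Txn2.

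Levels of different enzymes were compared per length, as FPKM. With RD the order was Cat (1663 ± 53.1 FPKM, SD, n = 3), Gpx1 (1509.7 ± 84.6 FPKM), Txn1 (235 FPKM), Sod1 (222 FPKM), Gpx4 (158 FPKM), Prdx5 (142 FPKM), Prdx6 (136 FPKM), Prdx3 (106 FPKM), Txn2 (55.8 FPKM) and Sod2 (26.1 FPKM). The ranges of Txn1 and Sod1, of Gpx4 and Prdx5, and of Prdx5 and Prdx6 overlapped over the RD livers. Within each RD liver, however, Gpx4 was above Prdx5. With HCD, Gpx1 (3291 ± 630.2 FPKM) stood above Cat (1495 ± 325 FPKM). The ranges of Gpx4 and Prdx6, Prdx6 and Prdx5, Prdx5 and Prdx3, and Prdx3 and Txn2 overlapped. Within each HCD liver, however, Gpx4 was above Prdx6, Prdx6 above Prdx5 and Prdx3 above Txn2. As a share of the summed FPKM of the 10 enzymes, Gpx1 was 35.5% ± 1.06 (SD, n = 3) with RD and 53.7% ± 5.97 with HCD, and Cat was 39.1% ± 0.48 and 24.4% ± 3.83. The order depends on the length used. The deposited values divide by all exonic bases of a gene, and with the length of the main transcript, an alternative chosen after seeing the data, 2 of the 10 enzymes (Sod2 and Prdx5) kept their place with RD and 3 (Gpx1, Sod2 and Prdx5) with HCD. Sod1, whose main transcript has 641 bases of 3970 exonic bases, then reached 1374 FPKM with RD and 1714 FPKM with HCD. Gpx1 then stood at 2029 FPKM with RD, above Cat at 1663 FPKM, and the shares were 31.9% for Gpx1 and 26.1% for Cat with RD and 47.8% and 16.2% with HCD, so that the order of these enzymes with RD is not settled by these data.

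Genes whose pattern over the 6 livers was most like that of Sod1, Sod2 and Cat were found among the 5247 genes whose mean level reached 20 CPM, by the root mean square difference of centred log2 CPM. For Sod1 these were Eif3h (0.023), a translation initiation factor subunit, Txndc17 (0.033), a thioredoxin-like protein, and Chmp1a (0.033). For Sod2 they were Scly (0.049), which recovers selenium from selenocysteine, Mrps16 (0.052), a mitochondrial ribosomal protein, and Gcsh (0.053), of the glycine cleavage system. For Cat they were Ap2m1 (0.044), a clathrin adaptor subunit, Pacsin2 (0.062) and Fbxw8 (0.062). Each is a likeness over 6 livers only.

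In 5 lists of related genes, edgeR called 1 of 84 genes tested (1.19%), against 3.27% of all genes, and DESeq2 called 6, against 6.97% of all genes. Before adjustment, 16 of the 84 were higher (19.0%) and 9 lower (10.7%) with an edgeR p of 0.05 or less, against 11.1% and 9.81% of all genes. Among 8 tested members of the other superoxide, peroxide and thiol enzymes, edgeR called 0 and DESeq2 1, 3 were higher with p of 0.05 or less before adjustment, and the median log2 fold change was 0.38. The smallest p values there belonged to Fam213b, a peroxiredoxin-like protein, at 0.85 ± 0.24 (SE, edgeR adjusted p = 0.0941), and to Prdx1, the main cytosolic peroxiredoxin, at 0.37 ± 0.15 (SE, edgeR adjusted p = 0.211). Of 18 partners and regenerating enzymes, a mixed list that includes the thioredoxin inhibitor Txnip and the Sod1 copper chaperone Ccs, edgeR called 0 and DESeq2 1, 3 were higher before adjustment, and the median was 0.26. Sesn2, a stress-induced sestrin, was at 1.09 ± 0.25 (SE, edgeR adjusted p = 0.0560), and Glrx, a glutaredoxin, at 0.59 ± 0.22 (SE, edgeR adjusted p = 0.178). Nnt, a mitochondrial source of NADPH for glutathione and thioredoxin that C57BL/6J mice are known to lack in functional form, stood at 0.48 to 1.92 CPM in all livers, a gene chosen after its values were seen.

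The producers of superoxide and peroxide went both ways. Of 19 tested, edgeR called 0 and DESeq2 2 (3.27% and 6.97% of all genes), before adjustment 4 were higher and 4 lower (11.1% and 9.81% of all genes), and the median log2 fold change was -0.19. Of the genes with the smallest p, Acox3, an acyl-CoA oxidase, was at -0.60 ± 0.15 (SE, edgeR adjusted p = 0.0686) and Hao1, the liver glycolate oxidase, at -0.72 ± 0.21 (SE, edgeR adjusted p = 0.101).

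Of 19 peroxisome biogenesis genes, edgeR called 1 higher and 0 lower (1.95% and 1.32% of all genes) and DESeq2 called 1, with 1 higher and 3 lower before adjustment (11.1% and 9.81% of all genes) and a median of -0.12. The called gene was Pex7, the receptor for peroxisomal proteins with the second type of targeting signal, at 57.8, 58.5 and 49.8 CPM with RD and 92.3, 83.1 and 78.0 CPM with HCD. Its log2 fold change was 0.61 ± 0.13 (SE) with an edgeR adjusted p of 0.0452, and leaving out any 1 of the 6 livers ended the call (edgeR adjusted p of 0.0751 to 0.162). Of 20 tested genes for selenoproteins and their synthesis, on which Gpx1 and Gpx4 depend, edgeR called 0 and DESeq2 1, before adjustment 5 were higher and 2 lower, and the median was 0.13. Secisbp2, which directs selenocysteine insertion, was at -0.79 ± 0.18 (SE, edgeR adjusted p = 0.0526), and the selenoprotein Selenow at 0.52 ± 0.14 (SE, edgeR adjusted p = 0.0877).

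**Figure D5:**
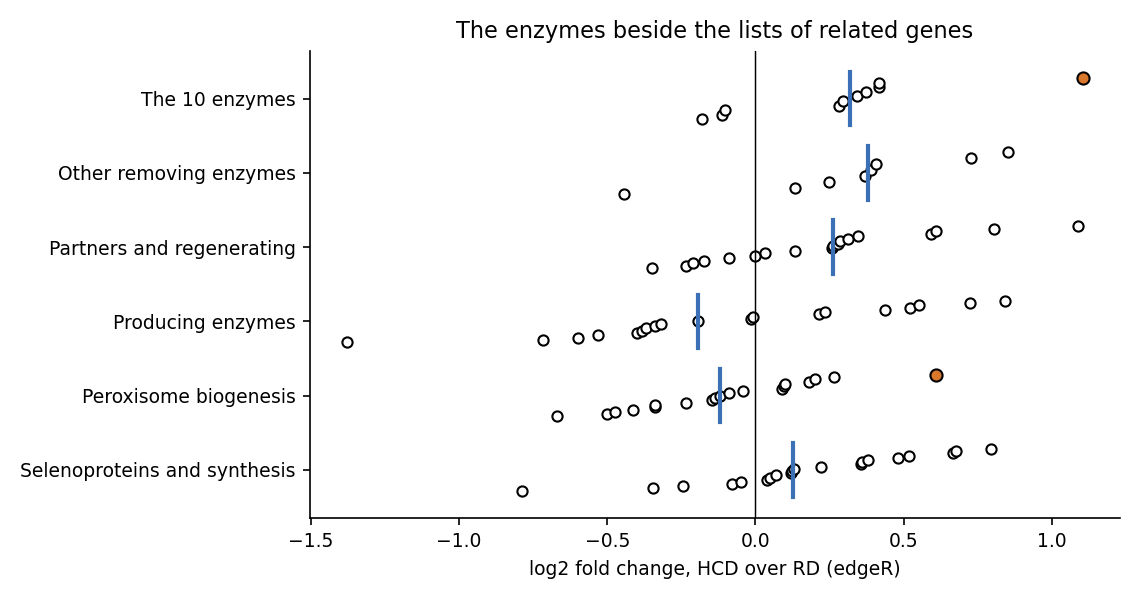
Log2 fold change, HCD over RD, of each tested gene in 6 lists, ordered by value within a list, with a blue bar at the list's median and filled points where the edgeR adjusted p is under 0.05. Medians run from -0.19 for the producing enzymes to 0.38 for the other removing enzymes, and only Gpx1 and Pex7 are filled.

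Markers of other cells and of sex were examined beside these values. Hepatocyte markers summed to 91091 to 126144 CPM with RD and 96505 to 138407 CPM with HCD, with 0 of 8 called by edgeR and 2 by DESeq2, against 3.27% and 6.97% of all genes. Red cells, which carry Gpx1 and Cat, were followed by 8 markers. Their sum was 138 to 239 CPM with RD and 177 to 468 CPM with HCD, edgeR called 2 of 5 tested higher (Hba-a1 and Hbb-bs, log2 fold changes of 2.41 and 2.28) and DESeq2 3 in either direction, against 1.95% and 6.97% of all genes, and the defining markers Slc4a1 and Epb42 were under 1 CPM. Neither globin was called without RD replicate 1, RD replicate 2 or HCD replicate 3 (edgeR adjusted p of 0.0696 to 0.106). In HCD replicates 1, 2 and 3 the red cell sums were 177, 468 and 452 CPM beside 2542, 3905 and 3166 CPM of Gpx1, so the liver with the lowest sum, within the RD range, also had the lowest Gpx1 of the HCD livers, above all RD livers. The 10 Kupffer cell markers summed to 168 to 277 CPM with RD and 230 to 506 CPM with HCD, all 10 with log2 fold changes above 0. Of these edgeR called 0 (3.27% of all genes) and DESeq2 4 (6.97% of all genes), and 5 were higher with an edgeR p of 0.05 or less before adjustment (11.1% of all genes). The Kupffer sums were 506, 448 and 230 CPM in HCD replicates 1, 2 and 3, the first and second above all RD livers and the last within their range. The 10 leukocyte markers summed to 6.83 to 13.3 CPM and 10.5 to 18.8 CPM, with 3 tested, 0 called by edgeR or DESeq2 and 8 under 1 CPM. Endothelial (90.2 to 153 and 117 to 189 CPM), stellate (201 to 214 and 208 to 339 CPM) and cholangiocyte sums (37.4 to 91.9 and 64.6 to 98.1 CPM) also overlapped between the diets, with 0 called by edgeR and 1 endothelial marker by DESeq2. Tested markers with log2 fold changes above 0 were 8 of 8 stellate, 7 of 8 endothelial, 4 of 5 cholangiocyte and 3 of 3 leukocyte. So were 4 of 5 red cell and 3 of 8 hepatocyte markers, where 50.7% of all genes were above 0. The part of these cells in the enzyme values was not tested. HCD replicate 1 held 5032 Xist counts and 0 counts of 4 Y-linked genes, while the other 5 livers held 0 Xist counts and 1075 to 2666 Y-linked counts. By these markers HCD replicate 1 was female and the other 5 livers were male, so sex was not balanced between the diets. Its part was not tested. Without HCD replicate 1 the log2 fold change of Gpx1 was 1.25 (edgeR adjusted p = 0.0138), that of Cat -0.07 and that of Prdx5 0.063.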

How the data were processed

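Liver RNA of 6 mice was sequenced, 3 on each diet, with 1 library per mouse. Per the labels, the submitters' notes name STAR, HTSeq, DESeq2, edgeR and GRCm39, without versions or strand setting. The authors deposited raw counts per gene and FPKM, which divide counts by all exonic bases and by totals of 0.590 to 0.726 of the summed counts. The members and gene lists were chosen with earlier results of these data known.

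Counts were tested with edgeR 4.0.16 (R 4.3.3): filterByExpr left 13105 of 20673 genes, all 10 enzymes among them, TMM scaling and a quasi-likelihood F test (two-sided) compared the diets without covariates, and Benjamini-Hochberg adjusted p under 0.05 was the threshold. The labels do not say that mice came from separate cages or cohorts, so p-values measure the spread between these livers. The script was tested on simulated data. A floor of 3 counts corresponds to 0.130 to 0.218 CPM and covers counting error only. Positions are those of GENCODE M21 (GRCm38), whose exon lengths were within 0.1% of those implied by the tables for 95.0% of genes. They were not converted to GRCm39. Copies of the enzymes were searched with minimap2 2.31. Alternatives were DESeq2 1.42.0, limma 3.58.1 on log2(FPKM + 1) and log2(FPKM + 0.1), other scalings and filters, a gene length trend, a replicate block and leaving out each liver. Of each other list, called genes were named, at most 4, or those with the smallest p up to 2. Some results under this rule are not reported here. Likeness was measured for Sod1, Sod2 and Cat.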

Additional observations from a re-analysis of the deposited data

How the results depend on the processing

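Of 171 fold changes of the enzymes under alternatives, 170 kept their direction, and the exception was Prdx5, at 0.063 without HCD replicate 1 (range -0.38 to 0.063 as each liver was left out). The count of enzymes called, 1 in the reported fit, was also 1 with DESeq2, with RLE factors, upper-quartile factors or plain library sizes, and without a filter or with a mean of at least 50 counts. It was 0 with limma on either FPKM pseudocount, with the length trend removed and at an adjusted p under 0.01, 4 by p before adjustment, and 0 to 1 as each liver was left out. The count of listed genes called, 1 (Pex7) in the reported fit, was 6 with DESeq2, 4 without a filter, 0 on library sizes alone, with limma on either pseudocount and at an adjusted p under 0.01, 25 by p before adjustment, and 0 to 2 as each liver was left out. Without a filter Pex7 was not among the 4. Of the 4 pairs, the log2 difference of Sod1 to Sod2 reversed to 0.073 without HCD replicate 3 (range -0.10 to 0.073). With main transcript lengths, 4 enzymes kept their place in the order of the means over all 6 livers, 2 in the RD order and 3 in the HCD order.

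Of all genes tested, 428 were called in the reported fit, 992 with DESeq2, 649 without a filter, 251 with the length trend removed and 39 to 387 as each liver was left out, with 39, 57, 146 and 104 without RD replicates 1, 2 and 3 and HCD replicate 3. The cause was not tested.

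The labels give both diets replicate numbers 1 to 3, but nothing says that a number marks a shared cage or day. Deviations of livers with the same number correlated at -0.076, 0.088 and -0.041 over genes, so the numbers were not taken to pair the livers. With the replicate block 136 genes, 0 enzymes and 0 listed genes were called, and with the block and the length trend together 96 genes, 0 enzymes and 0 listed genes. The log2 fold change of Gpx1 was 1.09 with the block (edgeR adjusted p = 0.0658) and 0.92 with both (edgeR adjusted p = 0.0955). Hba-a1 and Hbb-bs lost their calls with the block (edgeR adjusted p = 0.054 for each), and Gpx4-ps2 with both (0.0725). For the pairs, an exact sign-flip test over blocks cannot go below 0.25, and its mean difference equals the unpaired one by construction (-1.28 for Cat to Gpx1), so it bears on nothing here.

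Each enzyme had at least 1247 counts in every liver, whereas Nnt, with 6 to 38 counts, was at the limit of this depth.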
